A study of Mus musculus with 4 samples.

Results

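The genes of hepatic lipid droplet and triglyceride turnover were examined as a group of 10, taken by name from the 35275 genes listed for mouse liver: the perilipins Plin2, Plin4 and Plin5, the droplet protein Cidec, the fatty acid transporter Cd36, the lipase Pnpla2 and its inhibitor G0s2, and the acyltransferases Mogat1, Dgat1 and Dgat2. Of these 10 genes, 9 reached 1 CPM (counts per 1e+06 reads, the library size scaled by TMM) in every library, and Mogat1 did so in none. Female mice carrying the amyloidogenic Apoa2c allele were divided by fibril injection and by interval training (IT), a treadmill program alternating fast and slow running, into 4 groups. VS and VI received vehicle and FS and FI fibrils, and VS and FS stayed sedentary while VI and FI were trained. Mice of the fibril groups had been injected with AApoAII amyloid fibrils, which seed deposition of apolipoprotein A-II in liver and other organs. The paper reported less amyloid in the liver of FI than of FS mice, so the fibril groups were not equal in deposits. All groups carried Apoa2c, so none served as a control for the allele. The labels give the strain as AKR/J with an Apoa2c congenic genotype, whereas the study's methods name R1.P1-Apoa2c. Livers were taken at 26 weeks of age after 16 weeks of training, and 10 mg of tissue from each of 4 mice was pooled per group, so that 16 mice gave 4 libraries. The paper reports collection within a day of training, so lasting effects of IT and those of the last run cannot be told apart. Its mice were run in several series at different times, and the series behind each pool are not given. With 1 pooled library per group, no value below has an error across mice, and every interval covers counting error only.

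In the hepatocyte, surplus fatty acids are esterified to triglyceride by a chain of acyltransferases that ends with the DGAT enzymes, and the triglyceride is held in droplets coated by perilipins. Adipose triglyceride lipase, the product of Pnpla2, begins the release of fatty acids from the droplet, and G0S2 binds and inhibits this lipase. PLIN2 is the main coat protein of the liver droplet, and PLIN5 ties droplets to mitochondria in tissues that oxidize fat.

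In both the vehicle and the fibril livers, the libraries of trained mice held more Plin4, Plin5 and Pnpla2 and less Cd36 and G0s2 than those of sedentary mice. The sequences before the start sites of these 5 genes are shown because the genes moved together with IT, and Plin4 and Plin5 are neighbours, transcribed in the same direction with 1797 bases between them. Each is the 250 bases before a RefSeq start site on GRCm38.p6, written 5′ to 3′ on the strand of the gene. Capitals mark the half-site AGGTCA, on either strand, and the best match to a pair of these half-sites repeated in one direction with 1 base between them, where at most 2 of its 12 fixed bases differ. This direct repeat is the element to which PPAR nuclear receptors bind, and a match is a description of letters, not evidence of binding.
Plin4, chr17:56109783-56110032, minus strand: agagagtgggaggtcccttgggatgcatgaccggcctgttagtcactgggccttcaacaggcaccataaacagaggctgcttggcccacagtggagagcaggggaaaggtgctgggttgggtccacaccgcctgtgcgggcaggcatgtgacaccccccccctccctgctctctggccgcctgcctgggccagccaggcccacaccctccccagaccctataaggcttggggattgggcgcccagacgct
Plin5, chr17:56117549-56117798, minus strand: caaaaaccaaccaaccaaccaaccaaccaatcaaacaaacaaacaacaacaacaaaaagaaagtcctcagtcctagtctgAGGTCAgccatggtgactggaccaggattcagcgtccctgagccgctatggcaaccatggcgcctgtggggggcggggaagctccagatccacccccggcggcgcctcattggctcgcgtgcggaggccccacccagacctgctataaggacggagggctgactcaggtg
Pnpla2, chr7:141454938-141455187, plus strand: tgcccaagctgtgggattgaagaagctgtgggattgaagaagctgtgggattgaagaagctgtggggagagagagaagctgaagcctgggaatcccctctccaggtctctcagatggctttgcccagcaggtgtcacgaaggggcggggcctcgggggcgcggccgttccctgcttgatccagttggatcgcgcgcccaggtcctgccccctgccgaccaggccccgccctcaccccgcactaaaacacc
G0s2, chr1:193273189-193273438, minus strand: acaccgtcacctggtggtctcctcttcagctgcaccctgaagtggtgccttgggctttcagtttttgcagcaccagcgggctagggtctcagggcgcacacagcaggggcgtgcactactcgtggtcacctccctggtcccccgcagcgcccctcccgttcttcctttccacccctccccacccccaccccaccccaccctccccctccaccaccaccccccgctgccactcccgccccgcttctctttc
Cd36, chr5:17835897-17836146, minus strand: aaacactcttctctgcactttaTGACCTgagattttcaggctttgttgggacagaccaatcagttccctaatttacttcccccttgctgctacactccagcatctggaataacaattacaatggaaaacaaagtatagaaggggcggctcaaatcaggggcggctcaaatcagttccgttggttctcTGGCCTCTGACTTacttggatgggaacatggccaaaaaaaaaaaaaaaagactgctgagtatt

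Of the 10 genes, 8 were matched by symbol in the table of start sites, all but Dgat1 and Dgat2. None of their windows held the exact repeat. With up to 2 mismatches, 3 of the 10 windows of these genes held it, where 3.24% of the 32851 windows in the table did. It was found before Cd36, from 63 to 51 bases ahead of the start on the opposite strand, and also before Plin2 and Mogat1. Among the genes printed above, Cd36 alone had such a match. The window of Plin5 nearest to the end of the listed gene held a half-site 170 bases before the start. That of Cd36 held one 228 bases before it, and that of Plin2 held one 218 bases before it, inside its match to the repeat. Of all windows, 14.0% held at least 1 on either strand. The windows of Plin4, Pnpla2 and G0s2 held neither. The start site of Cd36 lies inside the listed gene, 53063 bases from its outer end.

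Total counts ranged from 23442935 in VS to 28814802 in FS, and TMM scaling factors from 0.975 to 1.02. The 9 hepatocyte marker genes summed to between 160000 and 179900 CPM, and none was at 0. Most of this sum was Alb, at 119865 CPM in VS, so it does not show that the single markers were even. In FS versus VS, 6 of the 9 were higher and 3 lower, from Tat (3.44-fold higher) to Cyp2e1 (1.86-fold lower). RNA of skeletal muscle was unevenly present: 13 muscle markers summed to 79.6 CPM in VS and 10.7 in VI, where 1 of the 13 was at 0, and to 1.15 in FS and 1.08 in FI, where 3 and 8 were at 0. The comparisons that do not use VS, namely FI versus FS and FI versus VI, are therefore given beside those that do. Muscle markers still differed within FI versus VI, where all 11 that were expressed were more than 2-fold lower in FI. Their sums were close only in FI versus FS. The 8 adipocyte markers summed to between 4.91 and 7.69 CPM, with 3 to 6 of the 8 at 0. Nearly all of this was Fabp4, with 155 of 158 counts in VS, 158 of 173 in VI, 144 of 145 in FS and 185 of 186 in FI. Adipoq had 1 count in FS and 0 in VS, VI and FI, whereas Cfd had 12 in VI, 1 in VS and 0 in FS and FI. The 8 Kupffer cell markers, none at 0, summed to 215 and 267 CPM in the vehicle libraries VS and VI and to 336 and 317 in FS and FI. In bulk liver, fewer cells of a type and less RNA per cell cannot be told apart.

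Plin4 encodes a perilipin that coats small nascent droplets. It lies at chr17:56100591-56109803 on the minus strand of mm10. The sedentary libraries VS and FS held 124 and 213 counts, or 5.25 (95% interval 4.37 to 6.26) and 7.21 CPM (6.28 to 8.25), and the trained libraries VI and FI held 469 and 704, or 19.3 (17.5 to 21.1) and 29.1 CPM (27.0 to 31.3). Both trained libraries lay above both sedentary ones. The level was 3.66-fold higher in VI than in VS (log2 ratio 1.87, interval 1.59 to 2.17), which placed Plin4 30th from the top of 12180 expressed genes, and 4.03-fold higher in FI than in FS (log2 ratio 2.01, 1.79 to 2.24), which placed it 21st. On the log2(FPKM + 1) scale, which understates the change of low genes, these ratios were 1.17 and 1.38. Between the fibril and the vehicle libraries the log2 ratio was 0.46 (0.13 to 0.79) in sedentary mice and 0.60 (0.43 to 0.77) in trained mice. Per length, Plin4 stayed the least abundant of the 3 perilipins in the group, at 0.919 to 4.93 FPKM (counts per kilobase of gene and 1e+06 counts).

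Plin5 lies at chr17:56111601-56117596, next to Plin4. It had 1434 counts in VS and 2224 in FS, or 60.7 and 75.3 CPM, against 2851 in VI and 6019 in FI, or 117 and 249 CPM. FI stood apart, at more than the sum of VI and FS. The log2 ratio of FI to FS was 1.72 (1.65 to 1.79), a 3.30-fold difference and the 41st highest of the expressed genes, against 0.95 (0.85 to 1.04) for VI to VS. The fibril ratio was likewise 1.09 (1.02 to 1.15) in trained and 0.31 (0.21 to 0.41) in sedentary mice. The IT ratio thus differed between fibril and vehicle livers by 0.78 (0.66 to 0.89), where the median absolute difference over the 12180 expressed genes was 0.24 and 10.3% of them had a larger one.

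Plin2, at chr4:86648386-86670060, was per length the most abundant perilipin in all 4 libraries. The vehicle libraries VS and VI held 9124 and 7473 counts, or 386 and 307 CPM, and the fibril libraries FS and FI held 6730 and 6259, or 228 and 259 CPM. VS was highest and FS lowest. The log2 ratio was −0.33 (−0.38 to −0.29) for VI to VS but 0.18 (0.13 to 0.23) for FI to FS, so that the counting intervals lay on opposite sides of 0. Scaled by total counts in place of TMM, the latter was 0.11. The fibril ratio was −0.76 (−0.81 to −0.72) in sedentary and −0.25 (−0.29 to −0.20) in trained mice.

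Compared per length, the composition of the perilipin transcripts differed between libraries. Summed over Plin1 to Plin5, Plin2 made up 81.7% (81.0 to 82.4) in VS, 67.4% in VI (66.6 to 68.3) as in FS (66.5 to 68.3), and 48.1% (47.3 to 49.0) in FI. Plin5 made up 12.2% (11.6 to 12.8), 24.5% (23.7 to 25.2), 21.2% (20.4 to 22.0) and 44.0% (43.2 to 44.8) in the same order. The VI and FS libraries had nearly the same share of Plin2, and FI was the library in which Plin5 came closest to it. The ratio of Plin5 to Plin2 in FPKM ranged from 0.149 (0.141 to 0.158) in VS to 0.914 (0.882 to 0.947) in FI, with 0.363 (0.347 to 0.379) for VI and 0.314 (0.299 to 0.330) for FS between them. Plin1, the perilipin of adipocytes, had 1 count in VI and 0 in the other libraries.

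Cidec (chr6:113424634-113435760), which promotes the fusion of droplets into larger ones, was low in all libraries. It had 67 counts in VS, 105 in FS and 79 in each trained library, or between 2.84 CPM in VS and 3.56 CPM in FS. The intervals of these levels overlapped, and the counting interval of the log2 ratio spanned 0 in all 4 contrasts (0.19, −0.12, 0.32 and 0.01 for VI to VS, FI to FS, FS to VS and FI to VI). At this depth a difference of the size seen for Plin4 with IT lay outside the interval of Cidec, whose upper bound was 0.68 for VI to VS and 0.31 for FI to FS.

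**Figure D1:**
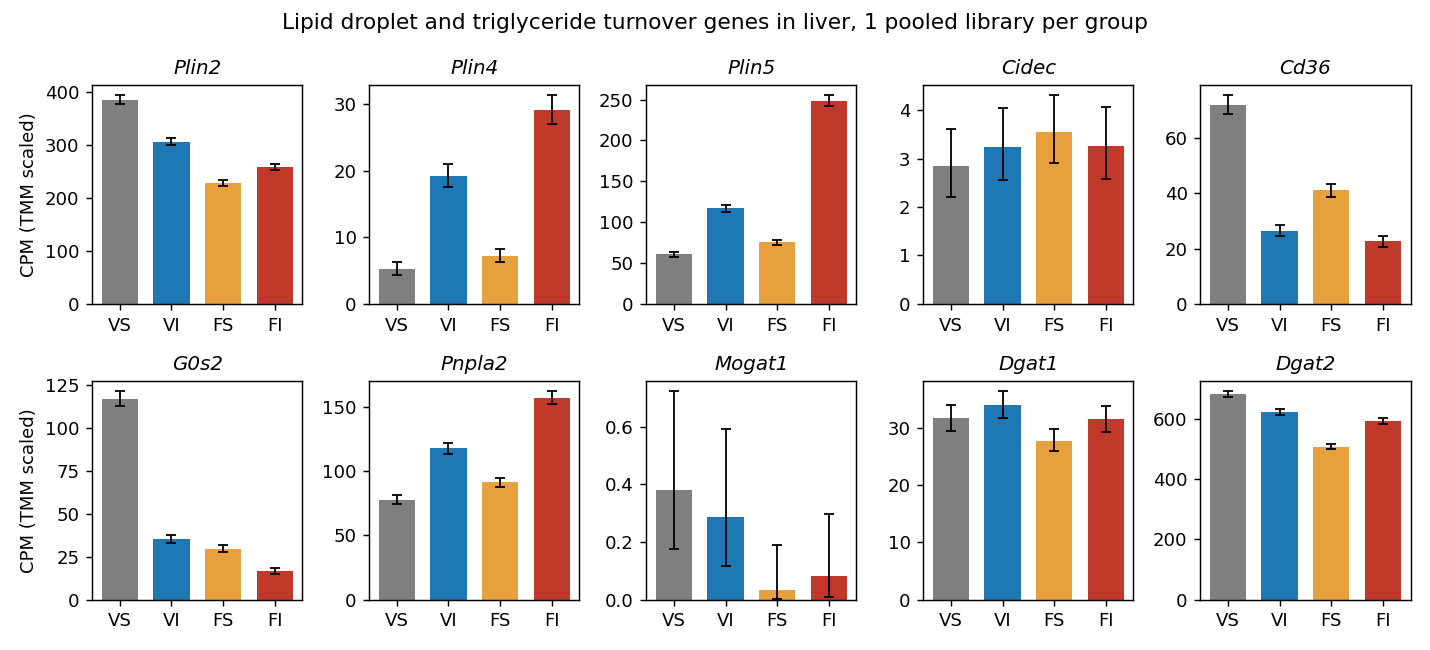
Level of each of the 10 genes (CPM after TMM scaling, y axis from 0) in the 4 pooled libraries, with bars for the level and error bars for the exact 95% Poisson interval. Plin4, Plin5 and Pnpla2 are highest in FI, Cd36 and G0s2 are highest in VS and lowest in FI, and the intervals of Cidec overlap.

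Pnpla2, at chr7:141455198-141460743 on the plus strand, and its inhibitor G0s2, at chr1:193272161-193273188 on the minus strand, differed in opposite directions between trained and sedentary libraries. Pnpla2 had 1833 counts in VS and 2700 in FS, or 77.6 and 91.5 CPM, and 2870 in VI and 3804 in FI, or 118 and 157 CPM. Both trained libraries were above both sedentary ones. The log2 ratio with IT was 0.60 (0.52 to 0.69) in vehicle livers and 0.78 (0.71 to 0.85) in fibril livers, and with fibrils 0.24 (0.15 to 0.32) in sedentary and 0.42 (0.35 to 0.49) in trained mice.

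G0s2 had 2757 counts in VS, or 117 CPM (112 to 121). The libraries with only one factor held 855 (VI) and 874 (FS), or 35.1 (32.8 to 37.5) and 29.6 CPM (27.7 to 31.6), and FI, with both, held 404, or 16.7 CPM (15.1 to 18.4). VS was far above the other libraries, and FI was lowest. The level was 3.33-fold lower in VI than in VS (log2 ratio −1.73, −1.85 to −1.62) and 1.77-fold lower in FI than in FS (−0.82, −1 to −0.65). With fibrils it was 3.94-fold lower in sedentary mice (−1.98, −2.09 to −1.87) and 2.10-fold lower in trained mice (−1.07, −1.25 to −0.90). The log2 ratio with IT differed by 0.91 (0.71 to 1.11) between fibril and vehicle livers, the largest such difference among the 9 genes, exceeded in size by 7.22% of all expressed genes. From VS to FI, G0s2 was 6.98-fold lower and Pnpla2 2.03-fold higher.

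The ratio of Pnpla2 to G0s2 in FPKM was lowest in VS (0.213, 0.201 to 0.226), near 1 in VI (1.08, 0.997 to 1.16) and FS (0.991, 0.918 to 1.07), and highest in FI (3.02, 2.73 to 3.35). Transcripts of the inhibitor thus outnumbered those of the lipase 4.69-fold in VS, were about equal to them in VI and FS, and were fewer in FI. These are ratios of transcripts, and protein was not measured for either gene.

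**Figure D2:**
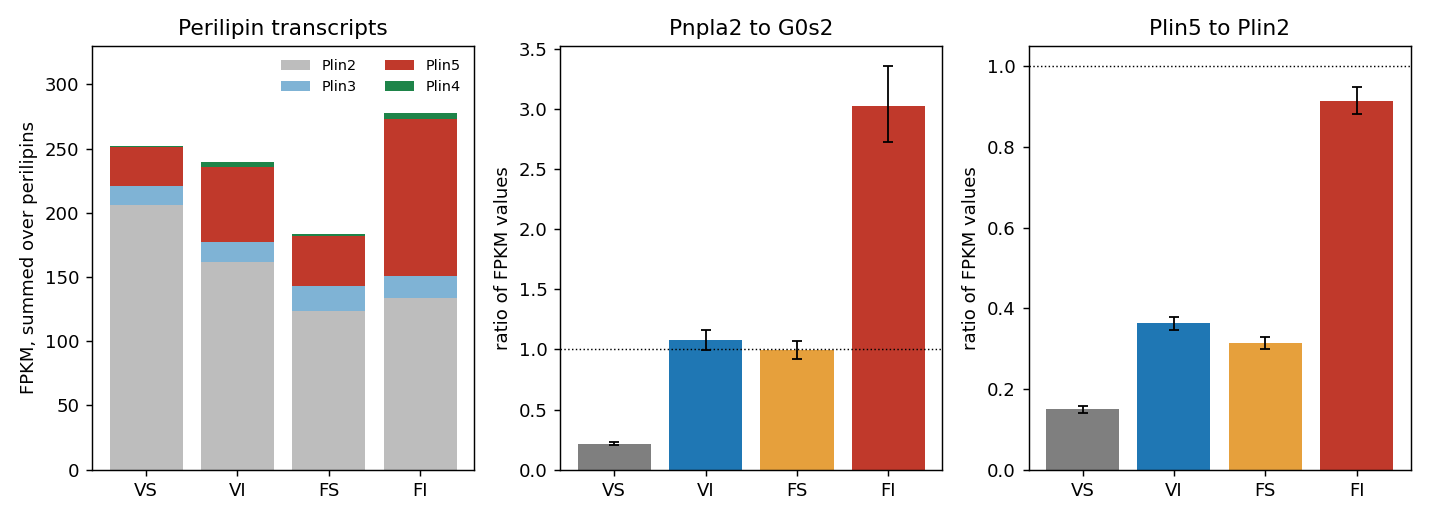
Left, perilipin transcripts in FPKM stacked for Plin2, Plin3, Plin5 and Plin4 in each pooled library; middle and right, the ratio of Pnpla2 to G0s2 and of Plin5 to Plin2 in FPKM, with 95% counting intervals and a dotted line at 1. Both ratios are lowest in VS and highest in FI, where Pnpla2 to G0s2 reaches 3.02 and Plin5 to Plin2 reaches 0.914.

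Cd36 encodes a membrane transporter that takes up long-chain fatty acids, and it lies at chr5:17781690-17888959 on the minus strand. Its counts in the sedentary libraries were 1695 (VS) and 1209 (FS), or 71.8 and 41.0 CPM, and in the trained libraries 645 (VI) and 545 (FI), or 26.5 and 22.5 CPM. Both trained libraries were below both sedentary ones. The level was 2.71-fold lower in VI than in VS (log2 ratio −1.44, −1.57 to −1.31) and 1.82-fold lower in FI than in FS (−0.86, −1.01 to −0.72). The fibril ratio was −0.81 (−0.92 to −0.70) in sedentary mice and −0.23 (−0.40 to −0.07) in trained mice. Cd36 is also expressed by muscle, endothelial cells and macrophages. The muscle markers summed to 79.6 CPM in VS, the library highest in Cd36, and to 10.7 in VI, 1.15 in FS and 1.08 in FI. The 7 endothelial markers, none at 0, summed to between 186 CPM in FS and 237 in FI. This sum does not show that they were even: in FI versus FS, 6 of the 7 were higher and 1 lower, from Lyve1 (3.57-fold higher) to Kdr (1.05-fold lower). The 8 Kupffer cell and macrophage markers summed to between 215 CPM in VS and 336 in FS. The part of muscle, endothelial cells and macrophages in the level of Cd36 was not tested.

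The DGAT transcripts differed little between libraries. Dgat2, at chr7:99153663-99182713, had between 14345 counts (FI) and 16117 (VS), or 682 CPM in VS, 623 in VI, 593 in FI and 508 in FS. VS was highest and FS lowest, as for Plin2. The log2 ratio was −0.13 (−0.16 to −0.10) for VI to VS, 0.22 (0.19 to 0.26) for FI to FS and −0.43 (−0.46 to −0.39) for FS to VS. Dgat1, at chr15:76502015-76511951, had counts of 749, 830, 821 and 763 in the order VS, VI, FS and FI, or 31.7, 34.1, 27.8 and 31.5 CPM. All 4 of its log2 ratios lay between −0.19 and 0.18, and the counting interval spanned 0 for VI to VS and for FI to VI. Per length, Dgat2 transcripts exceeded those of Dgat1 18.0-fold (16.8 to 19.4) in VS, 15.3-fold in VI and FS and 15.8-fold in FI. Mogat1 (chr1:78510991-78538173), which makes diacylglycerol from monoacylglycerol, had 9 counts in VS and 7 in VI but 1 in FS and 2 in FI. The log2 ratio of its FS to VS count was −2.90, with a counting interval from −8.95 to −0.64, and the other 3 intervals spanned 0.

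By the fold threshold alone, 1 of the 9 expressed genes was more than 2-fold higher in VI than in VS (Plin4) and 2 were lower (Cd36 and G0s2), where 1.54% of all 12180 expressed genes were higher and 1.90% lower. In FI versus FS, 2 were higher (Plin4 and Plin5) and 0 lower, against 1.72% and 2.54%. In FS versus VS, 0 were higher and 1 was lower (G0s2), against 3.60% and 2.18%. In FI versus VI, 1 was higher (Plin5) and 1 lower (G0s2), against 2.59% and 1.95%. The VS library is the denominator of both VI versus VS and FS versus VS, and FI the numerator of the other two contrasts, so neither pair is independent. At a threshold of 1.5-fold, 5 of the 9 genes differed with IT in the vehicle pair (VI versus VS), where 11.7% of all expressed genes did, and 5 in the fibril pair (FI versus FS), where 13.5% did. At the same threshold 3 differed in FS versus VS and 3 in FI versus VI, against 17.5% and 14.0%.

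**Figure D3:**
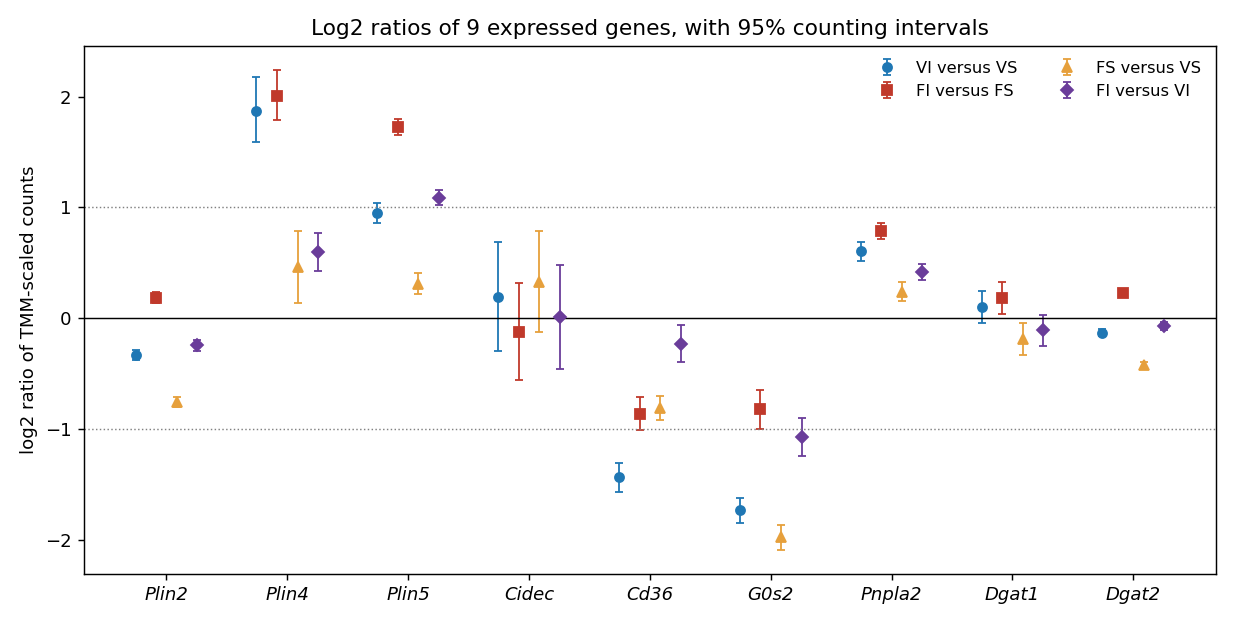
Log2 ratio of TMM-scaled counts (y axis) for the 9 expressed genes (x axis) in the 4 contrasts, with 95% counting intervals and dotted lines at 2-fold. The IT ratios of Plin4 (1.87 and 2.01) lie above the upper line, and G0s2 lies below the lower line in all contrasts but FI versus FS (−0.82).

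For a test with both factors, the effects of IT and of amyloidosis were taken as additive on the log scale, which leaves 1 residual degree of freedom over the 4 libraries. Amyloidosis here stands for fibril injection (FS and FI against VS and VI), not for the amount of amyloid, which IT lowered in the paper. In this fit of 11760 genes (edgeR quasi-likelihood, Benjamini-Hochberg adjustment over all of them), 5 of 9 genes changed with IT. Plin4 rose (log2 change 1.95, SE 0.15, adjusted p = 0.00115), as did Plin5 (1.34, SE 0.19, adjusted p = 0.0299) and Pnpla2 (0.69, SE 0.12, adjusted p = 0.0299). Cd36 (−1.15, SE 0.15, adjusted p = 0.0164) and G0s2 (−1.30, SE 0.21, adjusted p = 0.0438) fell. Over all genes tested, 0.765% rose and 0.714% fell with IT. Plin2 (−0.07, SE 0.15), Cidec (0.03, SE 0.24), Dgat1 (0.14, SE 0.12) and Dgat2 (0.05, SE 0.14) did not pass the test, with adjusted p from 0.633 to 0.974.

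These calls rest on the additive assumption and on the libraries as pools. With IT as the only term, edgeR called 0 of the 9 genes and 0 of all genes (4 and 650 at an unadjusted p under 0.05), and with DESeq2 size factors in edgeR the adjusted p of G0s2 with IT was 0.0564, within a range from 2.02e-19 to 0.898 over its alternatives. When one library was also left out, 1 of the 9 genes and 41 of all genes were called without VS, 2 and 47 without FS, and 0 of either without VI or without FI (4 and 627, and 3 and 291, at an unadjusted p under 0.05).

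**Figure D4:**
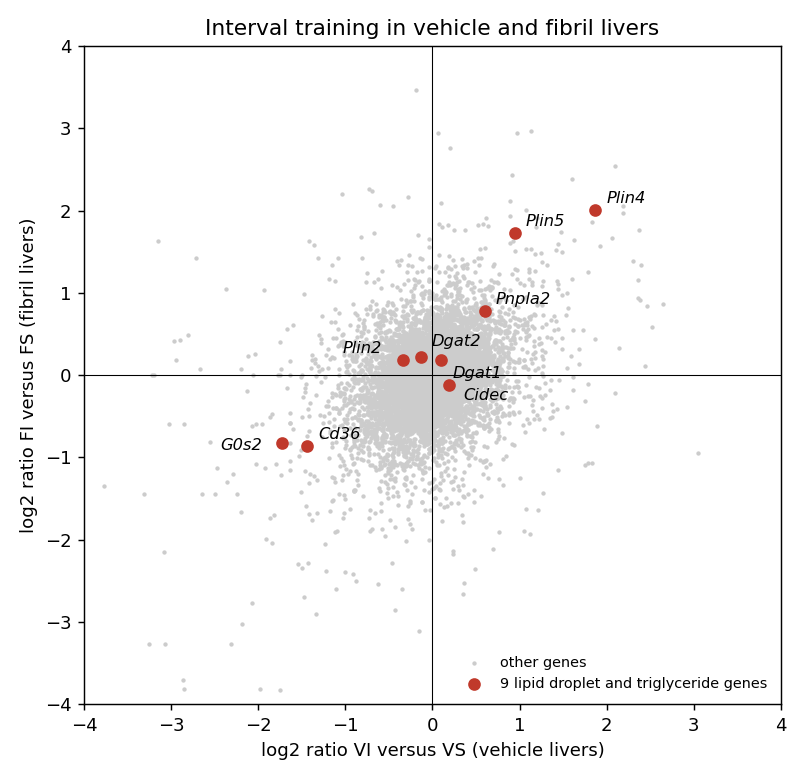
Log2 ratio with IT in vehicle livers (VI versus VS, x axis) and in fibril livers (FI versus FS, y axis) for 12180 expressed genes in grey, 14 of which lie outside the axes, and for the 9 genes in red. Plin4, Plin5 and Pnpla2 lie at the upper right, Cd36 and G0s2 in the lower left, and Plin2 and Dgat2 in the upper left, lower with IT in vehicle livers and higher in fibril livers.

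With amyloidosis, the same fit called 1 of the 9 genes: G0s2 fell (log2 change −1.55, SE 0.21, adjusted p = 0.0136). None of the 9 rose, where 2.81% of all genes rose and 2.17% fell. Plin5 (0.70, SE 0.19, adjusted p = 0.0922), Plin4 (0.53, SE 0.15, adjusted p = 0.0815), Cd36 (−0.54, SE 0.15, adjusted p = 0.0908) and Plin2 (−0.51, SE 0.15, adjusted p = 0.0951) did not pass. Plin5 passed with DESeq2 (adjusted p = 0.0293) and with limma-voom (adjusted p = 0.0493), within a range from 2.26e-06 to 0.71 over its alternatives. With amyloidosis as the only term, edgeR called 0 of the 9 genes, of which 1 had an unadjusted p under 0.05, and 8 genes in all. G0s2 was the gene of the group that passed for both factors. It also departed most from additivity among the 9, with IT ratios of −1.73 for VI to VS and −0.82 for FI to FS. Both of its calls therefore rest on an assumption that its own values do not meet.

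Beside the 10 genes, 71 further genes of the same pathways were listed, of which 67 were expressed and 65 entered the additive fit. With IT, 2 of the 65 rose and 3 fell, where 0.765% and 0.714% of all genes tested did so. With amyloidosis 2 rose and 6 fell, against 2.81% and 2.17%. Their median log2 ratio was −0.06 for VI to VS, 0.09 for FI to FS, −0.29 for FS to VS and −0.03 for FI to VI, where the medians over all expressed genes were between 0 and 0.02.

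Among the 13 genes of triglyceride synthesis in the fit, Dgat1 and Dgat2 included, Lpin1 and Gpat4 rose with IT. Lpin1, a phosphatidate phosphatase that makes diacylglycerol, had 2611 and 5874 counts in the vehicle libraries VS and VI, or 111 and 241 CPM, and 12657 and 16699 in FS and FI, or 429 and 690 CPM. It rose with IT (log2 change 0.91, SE 0.14, adjusted p = 0.0261). It also rose with amyloidosis (1.73, SE 0.15, adjusted p = 0.00143). Gpat4, which carries out the first acylation of glycerol 3-phosphate, had 131, 226, 139 and 227 CPM and rose with IT (0.75, SE 0.11, adjusted p = 0.024), whereas its log2 change with amyloidosis was 0.04 (SE 0.11). The 2 trained libraries held nearly the same level of Gpat4.

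Of 12 genes of triglyceride breakdown, 1 rose (Pnpla2) and 2 fell (G0s2 and Ces1g) with IT, and 0 rose and 5 fell with amyloidosis. The carboxylesterase Ces1d, a triglyceride hydrolase of the endoplasmic reticulum, had 2467 and 2544 CPM in the vehicle libraries VS and VI and 740 and 1034 CPM in FS and FI, and fell with amyloidosis (log2 change −1.52, SE 0.16, adjusted p = 0.00324). Its relatives Ces1f (−1.01, SE 0.14, adjusted p = 0.00821) and Ces1g (−1.33, SE 0.11, adjusted p = 0.00143) fell as well, and Ces1g also fell with IT (−0.71, SE 0.11, adjusted p = 0.026). The Ces1 genes are close copies of one another, so reads may be split between them. Lipa, the acid lipase of the lysosome, had 218, 194, 129 and 113 CPM and fell with amyloidosis (−0.77, SE 0.11, adjusted p = 0.0097). The fifth was G0s2, which inhibits a lipase and is not one itself.

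Of 15 genes of fatty acid uptake and activation in the fit, 0 rose and 1 fell with IT (Cd36), and 1 rose and 1 fell with amyloidosis. Fabp5, a fatty acid binding protein that is low in hepatocytes and higher in macrophages, had 14.6 and 17.0 CPM in VS and VI against 45.8 and 48.7 CPM in FS and FI, and rose with amyloidosis (log2 change 1.58, SE 0.12, adjusted p = 0.00143). Kupffer cell markers were also higher in FS and FI, and their part in this result was not tested. Acsl1, which activates long-chain fatty acids to acyl-CoA, had 863, 876, 439 and 553 CPM and fell with amyloidosis (−0.83, SE 0.14, adjusted p = 0.0151). Lpl, lipoprotein lipase, had 12.2, 11.4, 35.3 and 16.9 CPM, and its change with amyloidosis did not pass (1.06, SE 0.23, adjusted p = 0.052). Vldlr, a lipoprotein receptor, had 24.0 CPM in VS and between 11.2 and 13.3 CPM in the other libraries, and passed for neither factor.

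Of the 12 regulators of lipid storage, 0 rose and 2 fell with IT, and 0 rose and 1 fell with amyloidosis. Pparg, a nuclear receptor that drives lipid storage genes, had 38 counts in VS and 42 in FS but 5 in VI and 2 in FI, so both trained libraries held few reads of it. It fell with IT (log2 change −3.37, SE 0.54, adjusted p = 0.026), with log2 ratios of −2.86 (−4.67 to −1.62) for VI to VS and −3.82 (−7.20 to −2.16) for FI to FS. Srebf1, a transcription factor of lipid synthesis, had 284, 174, 165 and 102 CPM and fell with IT (−0.70, SE 0.11, adjusted p = 0.0291). It fell with amyloidosis as well (−0.79, SE 0.11, adjusted p = 0.00957). In the order of its levels, VS was highest and FI lowest, as for G0s2 and Cd36.

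Of the 15 genes of lipid droplet coat and formation, 2 rose (Plin4 and Plin5) and 0 fell with IT, and 0 passed the test with amyloidosis. Fitm1, a droplet-forming protein of muscle, had 5.59 CPM in VS and between 1.12 and 1.69 CPM elsewhere, and VS also held the most muscle marker RNA, whose part in the level of Fitm1 was not tested. Of the 8 genes of triglyceride export, 0 passed for either factor.

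**Figure D5:**
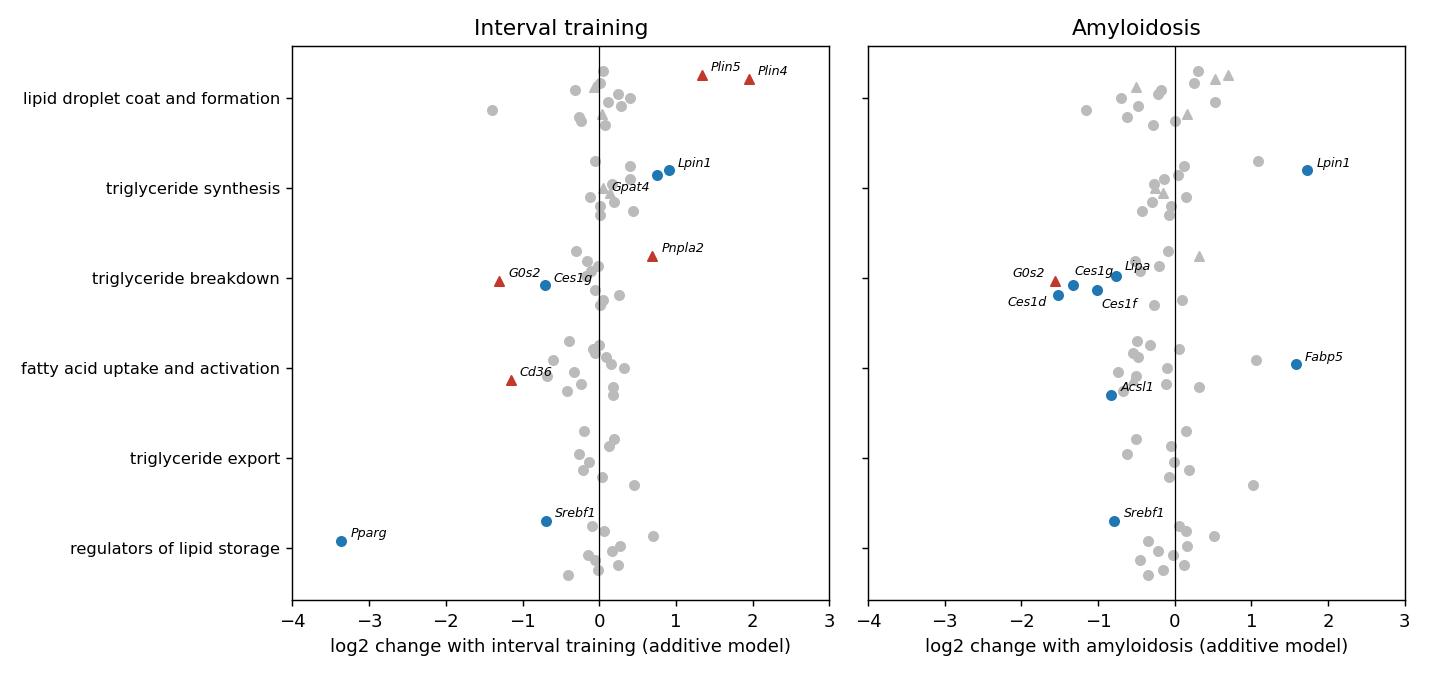
Log2 change in the additive model with IT (left) and amyloidosis (right) for the genes of 6 pathway lists (y axis), with triangles for the genes of the group of 10, circles for other pathway genes, and names and colour for those at an adjusted p below 0.05. Plin4 (1.95), Plin5 (1.34) and Pnpla2 (0.69) lie right of 0 with IT, and G0s2 lies left of 0 with both factors.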

How the data were processed

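Liver of 4 mice per group was homogenized, pooled by the authors and sequenced on an Illumina platform. The authors deposited raw read counts per gene and FPKM values; their processing notes name fastp 0.23.2, STAR 2.5, HTSeq 0.6.1 and mm10, with the annotation release and the strandedness of the counting not given in the sources used here. The deposited FPKM values equalled count divided by listed gene length and total count. Of the 10 genes, 6 have the same start and end in GENCODE M21, and the coordinates printed are those of the count table. Sequences before start sites come from RefSeq (GRCm38.p6).

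Counts were analysed with R 4.3.3 and edgeR 4.0.16, and figures drawn with Python 3.11.15 and matplotlib 3.10.9. Log2 ratios used TMM-scaled counts, a prior of 0.5 counts, genes that reached 1 CPM in 1 library or more, and exact conditional binomial (Clopper-Pearson) intervals at 95%; levels have exact Poisson intervals. Intervals of perilipin shares came from the counting variance. A count of 0 allows up to 3 counts, 0.102 to 0.127 CPM. The additive model (3 coefficients, 1 residual degree of freedom, robust quasi-likelihood) took genes that reached 1 CPM in 2 libraries or more, and was tested on simulated data. Those data were additive, with changes in IT only, so the simulation cannot judge calls for genes where additivity fails. Nothing separates mice within a pool, so p-values do not measure a spread between mice. The residual of a gene is its departure from additivity over these libraries. With 1 residual degree of freedom, its dispersion was moderated toward that of the other genes in the fit, on which the p-values and SE also rest. The 10 genes, the pathway and marker lists and the tests were chosen with earlier results of these data known. Pathway genes are named if more than 2-fold apart in at least 2 of 4 contrasts or called in the additive model. Alternatives were DESeq2 1.42.0 and its size factors, scaling by total counts, the FPKM values plus 1 or 0.1, no filter, a filter of 5 CPM, a threshold of 1.5-fold, limma 3.58.1 (voom), no robust estimation, a filter of at least 1 count, each factor alone, and, chosen after seeing the data, TMM factors of all listed genes and each factor alone without each library.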

Additional observations from a re-analysis of the deposited data

Results flagged for a closer look

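Plin2 and Dgat2 had log2 ratios with IT of opposite sign in vehicle and fibril livers, with counting intervals that excluded 0 in each. The ratio of FI to FS minus that of VI to VS was 0.516 (0.449 to 0.582) for Plin2 and 0.354 (0.308 to 0.400) for Dgat2. With 1 library per group these differences were not tested across mice, and over the 12180 expressed genes the median absolute difference was 0.239, with 20.6% of genes above the value of Plin2 and 34.6% above that of Dgat2.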

How the results depend on the processing

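The number of genes beyond 2-fold in each contrast was the same with DESeq2 size factors, total counts, both FPKM pseudocounts and a filter of 5 CPM. A threshold of 1.5-fold gave 5 genes in VI versus VS, 5 in FI versus FS, 3 in FS versus VS and 3 in FI versus VI, in place of 3, 2, 1 and 2. Without a filter on low counts Mogat1 was added, at 9 and 7 counts in VS and VI against 1 and 2 in FS and FI, which gave 2 in FS versus VS and 3 in FI versus VI. The 5 calls with IT became 4 with DESeq2 size factors and 5 with DESeq2, limma-voom, no robust estimation, a filter of at least 1 count and TMM factors of all listed genes. With the factor alone, 0 genes were called for IT and 0 for amyloidosis, and with each library also left out in turn between 0 and 2 for IT and between 0 and 0 for amyloidosis. In place of 1 call with amyloidosis, DESeq2 gave 2, limma-voom 2 and a filter of at least 1 count 5; the cause was not tested. No gene called or beyond 2-fold reversed its direction in these settings. The log2 ratio of Cidec for FI versus VI, 0.01 with TMM, was between −0.016 and −0.011 with total counts and FPKM, inside its counting interval. Total counts in place of TMM moved the median of all genes in FI versus FS to −0.07.

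Leaving out a library within the additive model was not possible, since 3 libraries leave no residual degree of freedom. No paired analysis was possible because each group has 1 library. The spread between mice is unknown because of the pooling, and depth limits Mogat1, Cidec and Pparg, whose intervals are wide.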
